A study of Mus musculus with 4 samples.

Results

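The axon guidance ligands and receptors described here are the semaphorins of classes 3 to 7, plexins, neuropilins, Slits, Robos, netrins, Unc5 receptors, ephrins and Eph receptors. They were chosen by symbol, and a gene was kept when it held at least 50 unique molecular identifiers (UMIs, each standing for 1 captured transcript) summed over 4 tissue sections. Of 32285 genes in the files, 68 symbols matched and 63 were kept: 20 semaphorins, 2 neuropilins, 9 plexins, 3 Slits, 3 Robos, 4 netrins, 3 Unc5 receptors, 8 ephrins and 11 Eph receptors. The kept genes nearest the minimum were Ntn5 with 62 UMIs and Slit1 with 63. The nearest one below it was Unc5d with 10, and Robo3 (6), Epha10 (5), Epha8 (2) and Epha6 (0) were also left out. Together the 63 genes made up 0.145% to 0.169% of the UMIs of a section.

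Sections of the injured Achilles tendon of mice were measured on Visium arrays, which capture RNA in spots that can each hold several cells of different types. A biopsy punch 0.5 mm in diameter had been made in the tendon about 2 mm from its calcaneal insertion at 12 weeks of age, and the site was taken 14 days later. The comparison was between 2 groups of 2 sections each. The WT sections carry wild-type TrkA, the nerve growth factor receptor of sensory and sympathetic neurons, and are labelled as controls. The F592A sections carry the TrkA F592A allele, which makes the kinase sensitive to the inhibitor 1NMPP1, and are labelled as treated with 1NMPP1. Genotype and treatment therefore differ together and cannot be told apart, and no label says whether WT mice received the drug. Both sexes were used and 4 mice per genotype were pooled, but no label ties a section to a mouse. The p-values therefore reflect how far sections differ from each other, which may be technical. In sums over spots, fewer cells of a type and less RNA per cell cannot be told apart.

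These ligand and receptor systems were named for how they steer growing axons. Class 3 semaphorins are secreted and act through neuropilins paired with plexins, while most other semaphorins bind plexins directly. Slits bind Robos, netrins bind Dcc, neogenin and Unc5 receptors, and ephrins on one cell bind Eph receptors on its neighbour, with signals running both ways. Outside the nervous system the same proteins act in vessel growth, epithelial boundaries, bone and muscle, and Sema3a is known as a repellent of sensory axons.

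The sections held 30154873 to 43957617 UMIs on 2027 to 3047 spots, with a median of 5465 to 7925 UMIs per spot. WT 2 stood apart from the other 3 sections in holding 4207 UMIs of the female-specific RNA Xist, against 7 to 12. It held 7 UMIs of the Y-linked Ddx3y, against 3823 to 4276. By these genes WT 2 reads as female and the other 3 sections as male. Sex is thus not balanced between the groups and cannot be told apart from section. Tissue makeup also differed: clustering of spots without the guidance genes gave 15 regions, and 13 of them were assigned to a tissue class by their leading genes. Muscle-led spots numbered 1248 and 411 in the WT sections and 718 and 660 in the F592A sections, tendon-led spots 132 and 1126 against 334 and 196, and epidermis-led spots 776 and 199 against 848 and 972. A tendon-led region of 853 spots, led by Xist and Kera, lay almost wholly in WT 2 (844 spots), and an epidermis-led region of 510 spots almost wholly in WT 1 (507 spots). Nerve-led spots numbered 123 and 20 in WT against 10 and 9 in F592A, and a list of myelin and Schwann cell genes summed to 1823 and 791 CPM (a list's or gene's UMIs per 1000000 UMIs) in WT against 450 and 449 in F592A. The part of these differences in the results below was tested only where a fit by tissue or without a tissue is given.

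**Figure D1:**
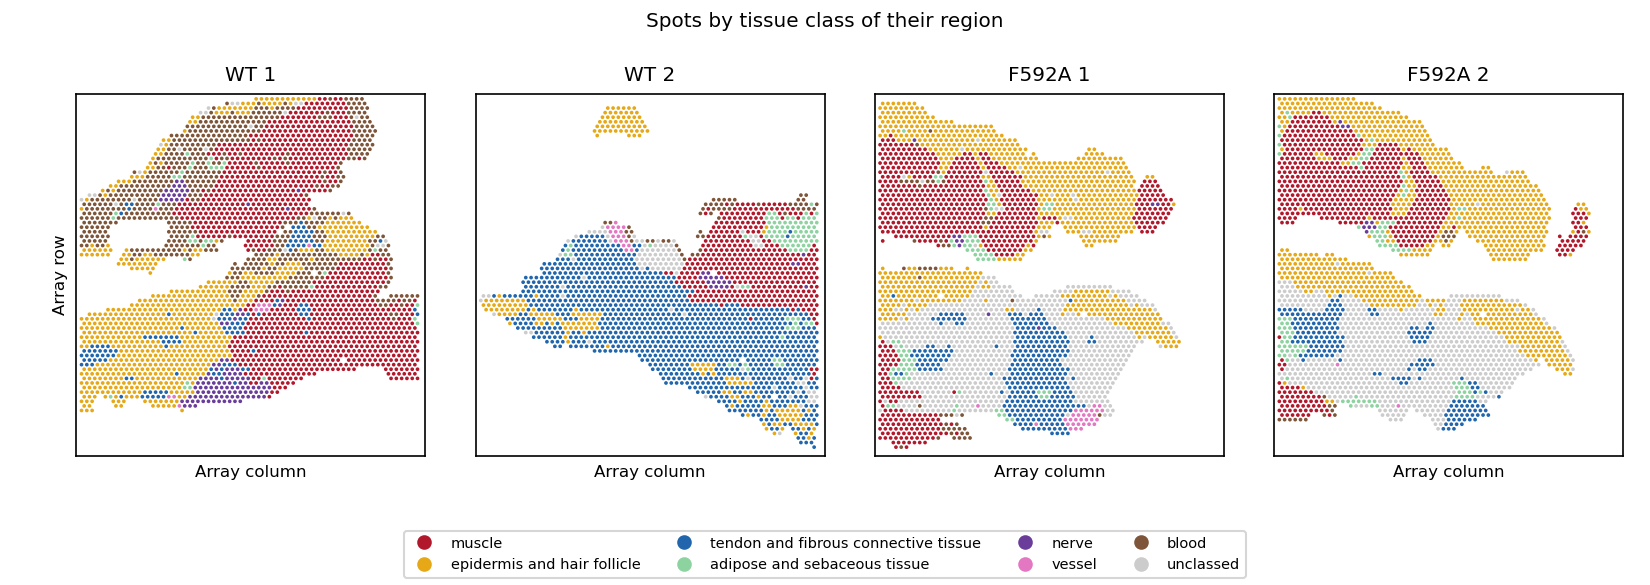
Every kept spot of the 4 sections at its array position (array column across, array row down), coloured by the tissue class of its region. Unclassed spots (grey) take 764 and 787 spots of the F592A sections against 27 and 101 of the WT sections, and nerve-led spots (purple) form a large block in WT 1.

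The guidance genes were first set out by tissue. Levels in this description are CPM within the same tissue class and section, and each is compared with the rest of the same section. The classes were named from markers and found without the guidance genes, and the comparison is descriptive. Counts of genes by class were made for the guidance genes only. They cannot be set against the share of all genes, which was not computed. Of the 63 genes, 37 had their highest mean level in epidermis-led spots among the 4 classes present in every section, 13 in adipose-led, 9 in tendon-led and 4 in muscle-led spots. For 27 genes the same class was highest in all 4 sections: 21 in epidermis, 4 in tendon (Ephb2, Ntn4, Plxnb2 and Sema3c), Sema6b in adipose-led spots and Sema6c in muscle. The name of the adipose-led class holds poorly in WT 2. Its list of adipose genes summed there to 2196 CPM, below the 4841 CPM of muscle-led and 2522 CPM of epidermis-led spots. The list of tendon and fibrous tissue genes summed to 212064 CPM in those adipose-led spots. With finer regions (Leiden resolution 1.0) blood replaced adipose tissue among the classes present in every section, and 45 of the 63 genes kept their highest class. Epidermis then led in 36 genes, tendon in 15, blood in 8 and muscle in 4, and of the genes just named Plxnb2 and Sema3c were again highest in tendon in all 4 sections, while Ephb2, Ntn4, Sema6b and Sema6c were not highest in the same class throughout.

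**Figure D2:**
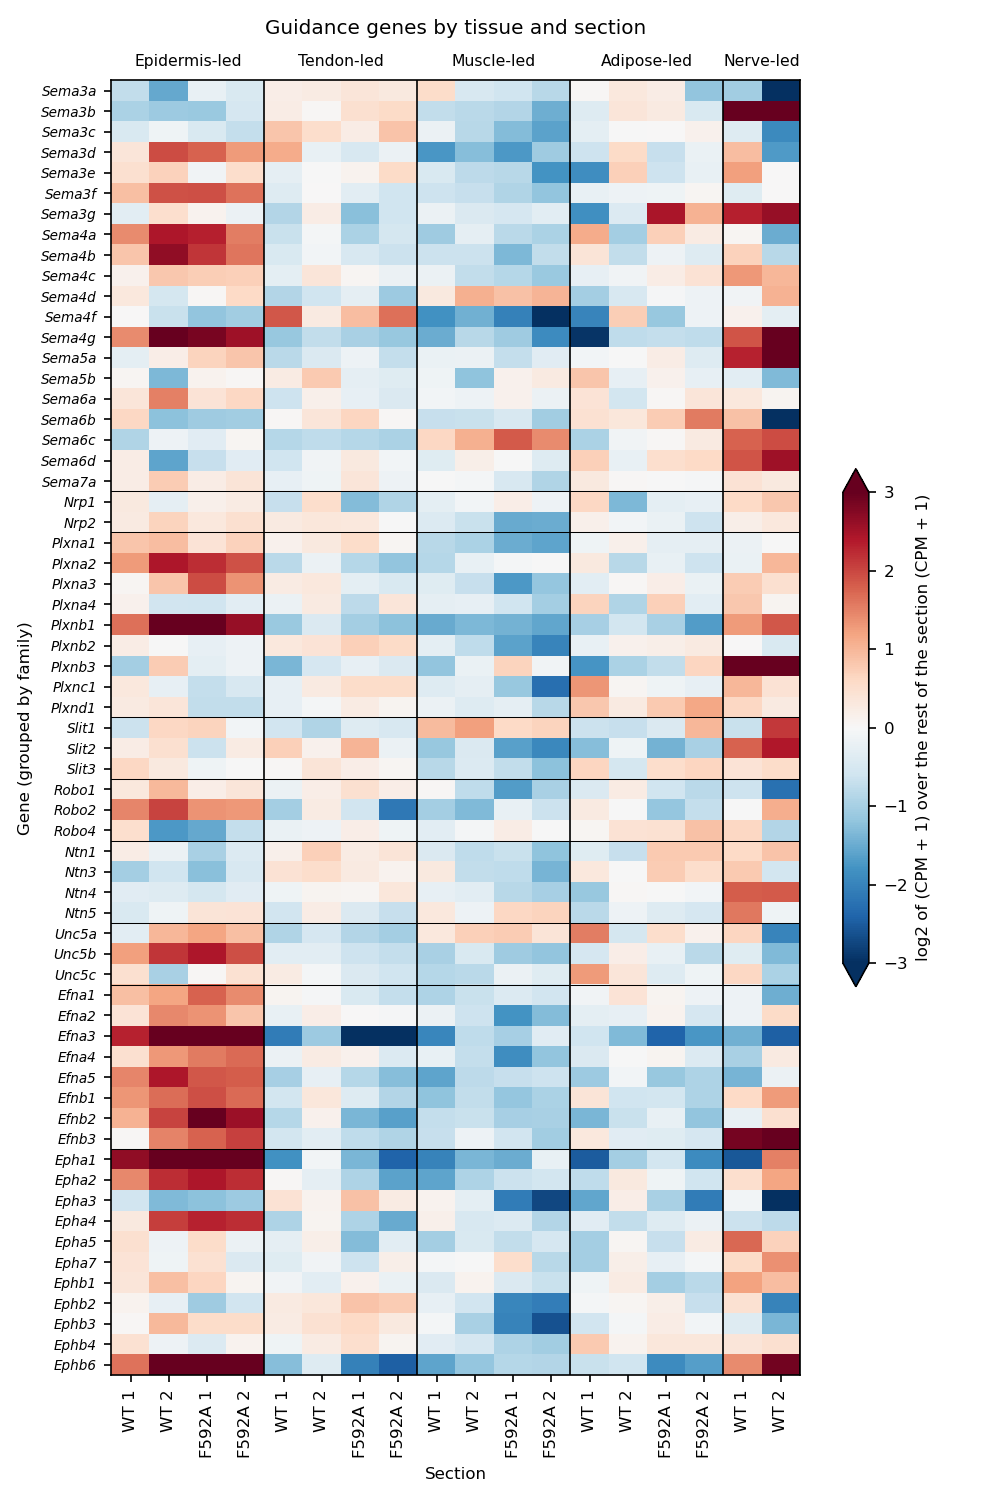
Log2 ratio of (CPM + 1) in a tissue class to (CPM + 1) in the rest of the same section, for 63 genes (rows, by family) and each section with at least 20 spots of the class (columns); colours stop at -3 and 3. Efna3, Epha1, Ephb6 and Plxnb1 stand above the rest in epidermis-led spots of all 4 sections, and Plxnb3, Sema3b and Efnb3 in nerve-led spots of both WT sections.

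Epidermis-led spots held both sides of the ephrin system. Epha1, an Eph receptor of epithelia, was at 14.1 and 18.7 CPM in the WT sections and 21.8 and 25.1 CPM in the F592A sections, which was 10.0 to 21.3 times the rest of the section. Efna3, a lipid-anchored ephrin, was at 22.4 and 81.4 CPM in WT and 136 and 112 CPM in F592A, or 6.01 to 37.3 times the rest. The lowest value of Efna3 was that of WT 1, whose epidermis-led spots also had the lowest summed level of epidermal markers, 10834 CPM against 30303 to 44033 in the other 3 sections. Ephb6, an Eph receptor without kinase activity, exceeded the rest 3.47-fold to 19.1-fold, and Plxnb1, the receptor of Sema4d, 3.33-fold to 12.2-fold. Efna5, Sema4g, Robo2 and Epha2 followed, with lowest folds of 2.92 to 3.17, and Sema4a, Plxna2, Efnb1, Unc5b and Efnb2 also exceeded the rest at least 2-fold in 4 of 4 sections. Semaphorin and receptor did not have their highest mean level in the same class in every pair. Sema4d, highest on average in muscle-led spots, was at 18.7 to 29.5 CPM there and at 10.7 to 23.2 CPM in epidermis-led spots. Plxnb1 was at 4.59 to 7.72 CPM in muscle-led spots. The 2 ranges of Sema4d overlapped, and in WT 1 Sema4d was highest in epidermis-led spots.

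In the nerve-led spots, which only the WT sections held in sufficient number, 15 guidance genes exceeded the rest of the section at least 2-fold in both sections. The share of all genes that did so was not computed. Plxnb3, a plexin known from glia and the receptor of Sema5a, was at 44.0 and 60.7 CPM against 0.846 and 0.834 CPM elsewhere, from 68 and 11 UMIs. Its partner Sema5a, a transmembrane semaphorin, was at 98.9 and 254 CPM against 19.2 and 15.8. Sema3b, a secreted semaphorin that acts through Nrp2, reached 333 and 458 CPM against 34.2 and 43.7, or 9.75-fold and 10.5-fold, and Efnb3, a transmembrane ephrin, 16.2 and 22.1 CPM against 1.35 and 1.23. The secreted ligands Sema3g, Slit2 and Ntn4 and the transmembrane Sema6d, Sema4g and Sema6c were higher there in both sections as well, by 3.49-fold to 13.0-fold. WT 2 contributed 20 spots, so its values for the rarer genes rest on few UMIs (4 for Efnb3).

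**Figure D3:**
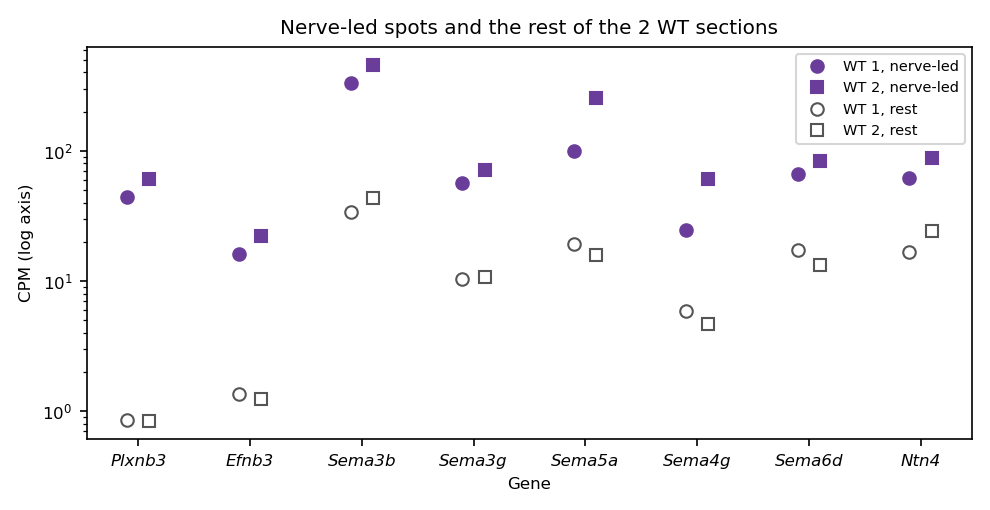
CPM on a log axis of the 8 guidance genes with the largest lowest fold in nerve-led spots (filled) and in all other spots of the same section (open), for WT 1 (circles) and WT 2 (squares). All filled points lie above the open points of the same gene, with the widest gap for Plxnb3.

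For the genes of the widest gaps, the 250 bases before the annotated start are shown as RefSeq gives them in build GRCm38.p6, the RefSeq name of the mm10 assembly, each 5′ to 3′ on the gene's own strand, since they are the nearest regulatory sequence of the genes with the strongest tissue pattern. Capitals mark matches, on either strand, to the SOX core ACAAAG or ACAATG in the nerve-led Plxnb3 (SOX factors such as Sox10 act in Schwann cells) and to the AP-2 motif GCCNNNGGC in the epidermis-led Efna3 and Epha1 (AP-2 factors act in epidermis). The Plxnb3 sequence lies at chrX:73756853-73757102 on the plus strand, Epha1 at chr6:42373269-42373518 on the minus strand, and the first of 2 Efna3 entries at chr3:89322940-89323189 on the minus strand.
Plxnb3: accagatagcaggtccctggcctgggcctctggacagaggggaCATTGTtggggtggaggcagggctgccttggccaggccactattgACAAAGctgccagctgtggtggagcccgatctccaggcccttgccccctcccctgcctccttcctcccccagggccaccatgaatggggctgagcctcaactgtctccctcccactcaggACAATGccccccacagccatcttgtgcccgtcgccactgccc
Epha1: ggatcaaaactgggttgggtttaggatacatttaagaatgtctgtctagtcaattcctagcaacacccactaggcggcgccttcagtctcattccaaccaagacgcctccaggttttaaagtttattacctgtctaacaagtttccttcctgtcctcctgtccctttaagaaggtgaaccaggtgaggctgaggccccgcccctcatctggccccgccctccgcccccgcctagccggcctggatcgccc
Efna3: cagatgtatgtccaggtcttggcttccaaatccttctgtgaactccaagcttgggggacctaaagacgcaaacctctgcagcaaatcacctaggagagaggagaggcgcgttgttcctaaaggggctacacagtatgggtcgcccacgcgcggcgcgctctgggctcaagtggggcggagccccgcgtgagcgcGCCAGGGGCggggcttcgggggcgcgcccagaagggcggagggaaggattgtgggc
Plxnb3 held 3 SOX matches, the Efna3 entry shown 1 AP-2 match, and Epha1 none. The second Efna3 entry, at chr3:89321769-89322018, held 0 AP-2 matches. Such letters are common. A SOX core was present in 25.2% of 32851 mouse promoter windows of this length, and in 4 of 17 windows (23.5%) of the nerve-high guidance genes (Ephb1, Ntn4, Plxnb3 and Sema6d). The AP-2 motif was present in 13.7% of all windows and in 4 of 19 windows (21.1%) of the epidermis-high genes (Efna3, Ephb6, Sema4a and Sema4g). Windows were found for 55 of the 63 genes, without Efnb3, Ntn1, Plxna1, Plxna4, Sema3b, Sema3f, Sema6a and Slit1.

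Tendon-led spots were set apart by few genes and by small factors. Sema3c, a secreted ligand of Nrp1 and Nrp2, was at 223 and 328 CPM in the WT sections and 239 and 363 CPM in the F592A sections, the highest of the 4 classes in each section, with 94.3 to 176 CPM in muscle-led spots. Plxnb2, the receptor of Sema4c and Sema4a, was at 180 and 194 CPM in WT and 191 and 164 CPM in F592A tendon-led spots. Ephb2, a receptor of B-class ephrins, was nearly level there, at 25.6, 27.5, 27.6 and 27.2 CPM. The ranges of Sema3c, Plxnb2 and Ephb2 in the 2 groups overlapped. In muscle-led spots Sema6c, a transmembrane semaphorin, was highest, at 32.4 and 50.1 CPM in WT and 61.6 and 51.8 CPM in F592A against 13.1 to 27.4 CPM in the other 3 classes. Slit1 exceeded the rest of the section 3.65-fold to 12.8-fold in muscle-led spots, on 41 UMIs in all 4 sections, but epidermis-led spots of F592A 1 and adipose-led spots of F592A 2 had higher levels. Robo4, the endothelial Robo, was at 46.2 CPM in the 31 vessel-led spots of F592A 1 against 9.85 CPM elsewhere in that section, and Slit3 was at 89.0 against 29.6 CPM, with no second section to compare.

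The groups were then compared over whole sections, to ask whether guidance genes differed between injured tissue with and without TrkA inhibition. No guidance gene passed an adjusted p of 0.05 in edgeR's quasi-likelihood test, where 0.0795% of the 16347 genes tested did. Of the 63 genes, 43 had lower and 20 higher fitted levels in F592A, with a median log2 fold change of -0.18 against -0.00034 over all genes. At an unadjusted p under 0.05 there were 17 (27.0%), 14 of them lower, against 11.8% of all genes. In 32 genes (50.8%) the 2 groups did not overlap, 25 of them lower in F592A, against 44.2% of all genes. CPM values in this and the following comparisons carry edgeR's TMM scaling.

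Among the ligands, Sema3b had the smallest p. It was at 44.3 and 47.7 CPM in WT and 24.3 and 23.9 CPM in F592A, a log2 fold change of -0.93 ± 0.09 (SE) with an edgeR adjusted p of 0.079. Both F592A sections were below both WT sections by more than the spread within either group. Sema3a, the best known axon repellent of the class, was at 12.6 and 21.7 against 8.73 and 7.13 CPM (log2 -1.11 ± 0.28). The WT sections differed from each other more than the F592A sections did, but the groups did not overlap. Slit2, the main Robo ligand, was at 19.9 and 14.6 against 9.77 and 10.8 CPM (log2 -0.75 ± 0.18), while Slit3 was at 26.3 and 26.9 against 30.4 and 35.2 CPM (log2 0.30 ± 0.11). Efna3 had the largest positive difference, with 8.34 and 4.62 CPM in WT and 12.8 and 21.5 CPM in F592A (log2 1.39 ± 0.35), with sections of 1 group differing widely from each other but no overlap between groups. The transmembrane semaphorins Sema5a, Sema4c and Sema6c were lower in both F592A sections by log2 differences of -0.27 to -0.43. The netrin Ntn4, a basement membrane protein, was at 18.1 and 25.2 against 27.4 and 31.9 CPM (log2 0.46 ± 0.18).

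Sema3c ranged from 141 to 299 CPM within WT alone, and its F592A values, 226 and 256 CPM, lay between. Sema3d (log2 0.11), Sema3e (0.48), Sema3f (0.13), Sema4d (-0.04), Sema6d (-0.36) and Sema7a (0.07) had an unadjusted p above 0.05, as did Ntn1 (-0.23). Among the ephrins, Efna1 was at -0.31 (27.8 and 33.2 against 23.3 and 25.8 CPM, unadjusted p 0.049 from edgeR) with groups that did not overlap, and Efna5, Efnb1 and Efnb2 at 0.10, -0.18 and 0.33 with overlapping groups.

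Of the receptors, Epha3, which binds A-class ephrins and is known from motor axon guidance and heart development, was at 54.5 and 35.4 CPM in WT and 20.5 and 20.2 CPM in F592A (log2 -1.15 ± 0.21, edgeR adjusted p 0.196). The WT sections differed from each other, the F592A sections were level, and both WT values were above both F592A values. Nrp1, the coreceptor of class 3 semaphorins and of VEGF, was at 96.1 and 114 against 65.8 and 69.3 CPM (log2 -0.63 ± 0.12, edgeR adjusted p 0.196), whereas Nrp2 was at 110 and 104 against 98.5 and 103 CPM (log2 -0.09 ± 0.10). The 2 neuropilins thus had values of unlike size, a difference that was not tested. Plxnb3 was at 2.37 and 1.23 against 0.622 and 0.708 CPM (log2 -1.45 ± 0.40), on 27 UMIs in each F592A section. Robo1 (log2 -0.28 ± 0.09), Ephb3 (-0.30 ± 0.10) and Ephb1 (-0.69 ± 0.24) were lower in both F592A sections without overlap. Plxna1 (-0.11), Plxnb1 (0.23), Plxnb2 (-0.21), Plxnc1 (-0.20), Plxnd1 (-0.20), Robo2 (0.40), Robo4 (-0.18), Unc5b (0.13), Unc5c (-0.45), Epha2 (-0.13), Epha7 (-0.35), Ephb2 (-0.19) and Ephb4 (-0.12) had an unadjusted p above 0.05.

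**Figure D4:**
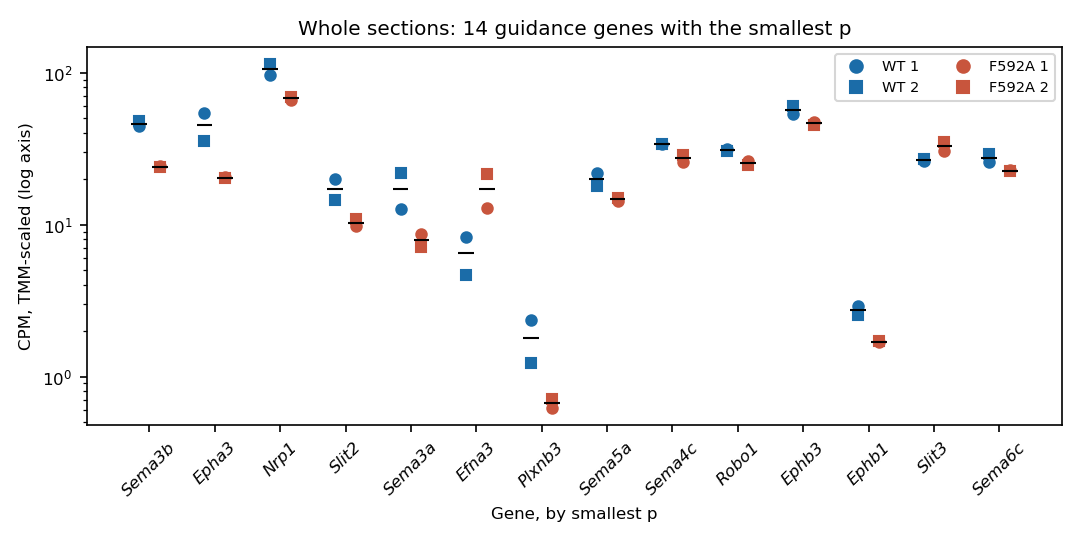
TMM-scaled CPM on a log axis in each whole section for the 14 guidance genes with the smallest p, none past the threshold; blue marks WT, red F592A, circles section 1, squares section 2 and bars the group mean. The groups do not overlap in any of the 14 genes, and Efna3 and Slit3 alone of these are higher in F592A.

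These counts depended on the tool and on single WT sections. DESeq2 called 6 of the 63 genes (Sema3a, Sema3b, Slit2, Efna3, Nrp1 and Epha3), and edgeR called 5 without WT 1 and 5 without WT 2, against 0 without either F592A section. The share of all genes called was 1.85% in DESeq2, 2.1% without WT 1, 2.31% without WT 2 and 0% without either F592A section. Without the nerve-led spots, in which the WT sections were richer, the log2 fold change of Plxnb3 was -0.40, that of Sema5a -0.29 and that of Sema3b -0.75. In that fit 13 guidance genes (20.6%) were at an unadjusted p under 0.05, against 11.1% of all genes.

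Outside the muscle-led regions no guidance gene was called either (0 of 61 tested, against 0.0508% of 15734 genes), with 10 at an unadjusted p under 0.05 (16.4%, against 7.88% of all genes). With the nerve-led spots also left out there were 6 (9.84%, against 7.02% of all genes). Sema3b was at 53.7 and 52.3 CPM in WT and 26.0 and 26.2 CPM in F592A (log2 -1.02 ± 0.09, edgeR adjusted p 0.079), and the spread within each group was small beside the gap. Nrp1 (log2 -0.70 ± 0.11), Epha3 (-0.95 ± 0.18), Efna1 (-0.47 ± 0.10) and Slit2 (-0.87 ± 0.27) were lower in both F592A sections, as in whole sections, which share these spots. Plxnb3 had 83 and 31 UMIs in WT and 19 and 24 in F592A (log2 -1.96 ± 0.56), and -0.38 without the nerve-led spots. Sema5a (-0.43 ± 0.15) and Sema4c (-0.29 ± 0.11) completed the 8 genes of smallest p. DESeq2 called 3 genes here (Sema3b, Nrp1 and Epha3), and edgeR 5 without WT 1 and 8 without WT 2, where 0.746%, 2.6% and 2.34% of all genes were called.

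Within tendon-led spots no guidance gene passed the edgeR threshold (0 of 60, against 0.0209% of 14378 genes). At an unadjusted p under 0.05 there were 17 (28.3%, against 13.5% of all genes), 16 lower in F592A and Ntn4 higher. Sema3b was at 52.6 and 46.5 against 27.2 and 30.8 CPM (log2 -0.77 ± 0.13), and Efna1 at 30.1 and 31.7 against 19.3 and 18.6 CPM (-0.71 ± 0.12). Its receptor Epha2 was at 14.7 and 10.8 against 6.43 and 5.88 CPM (-1.03 ± 0.21) and was also lower in both F592A sections. Some marker lists of other cell types were also lower in the tendon-led spots of both F592A sections: the epidermal list summed to 984 and 1034 CPM in WT against 414 and 584 CPM, the nerve list to 605 and 456 against 347 and 411 CPM, and the slow and embryonic muscle list to 221 and 558 against 50.1 and 48.1 CPM. The immune list was lower as well. The vessel list was higher in both F592A sections, at 3026 and 2990 against 3041 and 3514 CPM. In the muscle, adipose, blood, cartilage, endothelial and neuron lists the groups overlapped. The tenocyte list itself was at 9543 and 7296 against 5016 and 5842 CPM. The list of tendon and fibrous tissue genes was lower too, at 223448 and 214354 against 187622 and 198282 CPM. The part of all these lists in the differences was not tested. Nrp1 was at 66.1 and 124 against 38.8 and 45.9 CPM (-1.18 ± 0.29) and its ligand Sema3a at 14.8 and 22.4 against 9.59 and 8.30 CPM (-1.07 ± 0.23). The higher of the WT values in both came from WT 2, whose tendon-led spots were mostly of the Xist- and Kera-led region. In the tendon-led region present in all sections, led by Acan, Nrp1 was at 63.1 and 103 CPM in WT and 39.2 and 46.3 CPM in F592A, and Sema3a at 14.6 and 19.4 against 9.70 and 8.38 CPM. There too the groups did not overlap.

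Epidermis-led spots gave no call among 13472 genes (0%), 56 guidance genes included, and 12 of these (21.4%) were at an unadjusted p under 0.05, against 10.2% of all genes. All 8 ephrins had a positive log2 fold change there, from 0.067 to 1.43, but 3 of them (Efna3, Efnb2 and Efnb3) were at an unadjusted p under 0.05, and in Efna1, Efna2, Efna5 and Efnb1 the groups overlapped. Efnb2, the ligand of Ephb4, was at 85.7 and 142 CPM in WT and 250 and 240 CPM in F592A (log2 1.12 ± 0.34), and Efna3 at 24.0 and 76.2 against 139 and 111 CPM (1.43 ± 0.55). The endothelial receptor Plxnd1 was at 70.6 and 54.9 against 29.4 and 26.9 CPM (-1.18 ± 0.25). Most epidermis-led spots of WT 1 came from a region nearly absent in the other sections, and a list of endothelial genes summed to 1011 and 599 CPM in the epidermis-led spots of WT against 352 and 440 CPM in those of F592A. The epidermal list summed there to 10834 and 33535 CPM in WT against 44033 and 30303 CPM in F592A. The list of tendon and fibrous tissue genes summed to 141570 and 90119 against 70868 and 86562 CPM. The part of these lists in the differences between groups, those of the ephrins included, was not tested. In the Krt77- and Lor-led region that every section held, Efna3 was at 169 and 174 CPM in WT and 162 and 147 CPM in F592A, without the direction of the whole class.

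Muscle-led spots were the tissue in which guidance genes were called. Of 52 tested genes 8 passed (15.4%), against 6.58% of 12891 genes, 7 lower in F592A (2.69% of all genes were called lower) and 1 higher (3.89%). Those lower were the Eph receptors Epha3, Ephb2 and Ephb3, the plexin Plxnb2 and the secreted ligands Slit2, Sema3a and Sema3b, and the one higher was Efna3. At an unadjusted p under 0.05 the share was 32.7%, against 33.2% of all genes.

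Epha3 was at 50.4 and 26.8 CPM in WT and 4.91 and 3.05 CPM in F592A, where it rested on 26 and 13 UMIs, and fell by 3.28 ± 0.40 on the log2 scale (edgeR adjusted p 0.037). Both WT values lay above both F592A values, but the WT sections also differed widely from each other. Ephb2 was at 17.3 and 16.5 against 6.05 and 5.16 CPM (log2 -1.59 ± 0.23, edgeR adjusted p 0.038) and Ephb3 at 46.7 and 29.7 against 13.4 and 8.67 CPM (-1.79 ± 0.31, edgeR adjusted p 0.043). Plxnb2 was at 119 and 103 against 62.0 and 40.8 CPM (-1.11 ± 0.24, edgeR adjusted p 0.048). In none of these receptors did the groups overlap. Slit2 was at 10.4 and 9.95 against 3.02 and 2.81 CPM (-1.80 ± 0.29, edgeR adjusted p 0.041), Sema3a at 13.7 and 14.6 against 6.23 and 4.45 CPM (-1.38 ± 0.26, edgeR adjusted p 0.044), and Sema3b at 28.7 and 25.9 against 14.7 and 10.3 CPM (-1.12 ± 0.23, edgeR adjusted p 0.046). The 3 ligands were near level between the WT sections and lower in both F592A sections. Efna3 rose from 2.40 and 2.31 CPM to 6.99 and 20.2 CPM (2.50 ± 0.52, edgeR adjusted p 0.047), with the F592A sections differing from each other more than the WT sections. The list of epidermal genes summed in these same spots to 904 and 793 CPM in WT and 1982 and 5130 CPM in F592A, and its part in the Efna3 difference was not tested.

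The makeup of the muscle-led spots differed between the groups. A region led by Myh3, the embryonic myosin of developing and regenerating fibres, made up 35.5% and 41.1% of the muscle-led spots of WT and 4.18% and 0.758% of those of F592A. The list of tendon and fibrous tissue genes summed to 134325 and 113231 CPM in muscle-led spots of WT against 55282 and 29112 CPM in F592A. Conversely, the list of muscle genes summed to 75486 and 114145 CPM against 180906 and 192801 CPM. Without the Myh3-led region, 805 and 242 spots against 688 and 655 were left, and no guidance gene passed in edgeR (0 of 49, with 6, or 12.2%, at an unadjusted p under 0.05, against 8.42% of all genes), nor did any gene at all. In those spots Epha3 was at 19.96 and 24.4 CPM in WT and 3.29 and 2.83 CPM in F592A (log2 -2.83 ± 0.27, edgeR adjusted p 0.100, the highest of its 11 alternative settings, of which the lowest was 1.23e-29), while Plxnb2 was at 52.2 and 66.8 against 50.2 and 36.2 CPM (-0.45 ± 0.22). Sema3b had nearly the same log2 fold change as before (-1.05 ± 0.38), but its WT sections lay far apart. WT 1 was at 11.9 CPM, near the 8.03 and 9.15 CPM of F592A, and WT 2 at 25.2 CPM. Slit2 (-1.03 ± 0.41), Ephb3 (-0.96 ± 0.24), Ephb2 (-0.94 ± 0.36) and Sema3a (-0.83 ± 0.42) had smaller differences in the same direction. Efna3 was at 5.73 and 2.67 CPM in WT against 6.998 and 18.7 CPM in F592A, also closer together.

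Levels by region showed where these genes lay in muscle. In WT 1 Plxnb2 was at 164 CPM in the Myh3-led region and 38.9 CPM in the region led by the fast myosin Myh4, and Ephb3 at 66.4 and 9.38 CPM, and the F592A sections had 31.6 and 32.2 CPM of Plxnb2 and 6.45 and 8.18 CPM of Ephb3 in that Myh4-led region. Epha3 differed within it, with 19.2 CPM in WT 1 against 3.38 and 2.54 CPM in F592A 1 and F592A 2, and in the slow region led by Myl3 and Myl2, with 13.0 against 0 and 3.11 CPM. WT 2 had only 2 spots in each of these regions, so this contrast rests on 1 WT section and has no test. In the region led by Mss51 and Myh1, which both WT sections held, Epha3 was at 26.8 and 25.3 CPM in WT and 4.71 CPM in the 28 spots of F592A 1. The 8 muscle calls also rested on single sections: 1 gene (Epha3) was called without WT 1, 12 without WT 2, 9 without F592A 1 and 0 without F592A 2. The corresponding shares of all genes called were 0.221%, 15%, 9.93% and 0.193%.

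**Figure D5:**
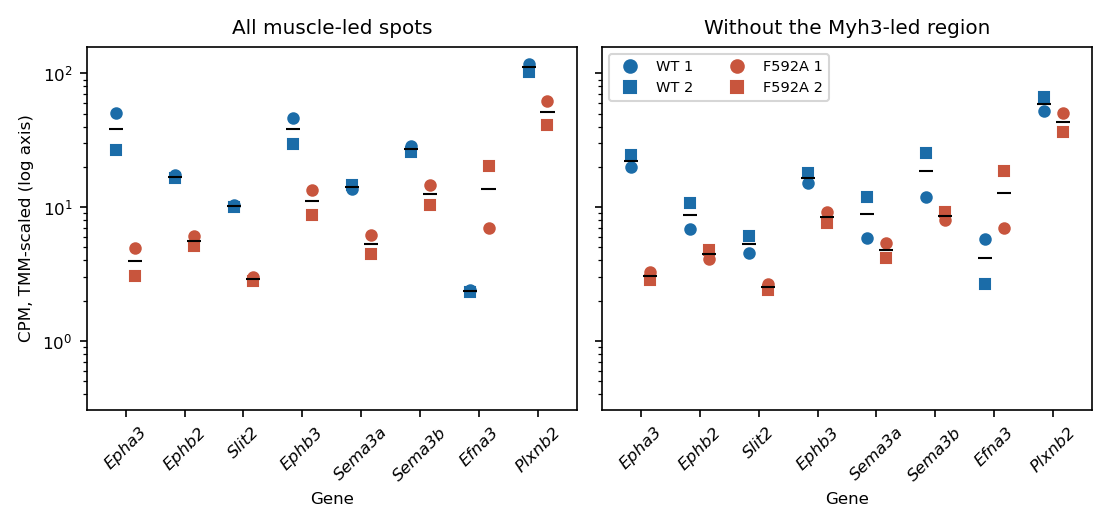
TMM-scaled CPM on a log axis of the 8 called guidance genes in all muscle-led spots (left) and in those outside the Myh3-led region (right); blue marks WT, red F592A, circles section 1, squares section 2 and bars the group mean. The gap between group means is narrower on the right for each of the 8 genes, least so for Sema3b, and is widest for Epha3 in both. For Sema3b on the right the WT sections lie far apart, at 11.9 and 25.2 CPM.

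Whether the difference between groups itself differed between muscle-led and other spots was tested as an interaction. No guidance gene passed (0 of 63, against 0.0189% of 15914 genes), and 18 (28.6%) were at an unadjusted p under 0.05, near the 25% of all genes. The 3 of smallest p were Epha3 (interaction log2 -2.32 ± 0.31, edgeR adjusted p 0.064), Ephb2 (-1.53 ± 0.26, edgeR adjusted p 0.067) and Sema6c (1.08 ± 0.23, edgeR adjusted p 0.069). For Epha3 the fitted decrease was larger in muscle-led spots. Ephb2 was lower in muscle-led spots of F592A, while elsewhere its groups overlapped, at 22.9 and 28.0 CPM in WT against 24.8 and 21.7 CPM in F592A (log2 -0.13 ± 0.14). Sema6c was at 28.5 and 46.5 against 67.6 and 58.4 CPM in muscle-led spots (log2 0.77 ± 0.26). Elsewhere it was at 19.9 and 24.6 against 16.9 and 18.3 CPM, so its 2 fitted directions were opposite. In muscle-led spots without the Myh3-led region, however, the groups of Sema6c overlapped (log2 0.09 ± 0.17). The interaction was not tested without that region. The interaction calls ranged from 0 to 18 genes when 1 section was left out, with 18 without WT 2 (28.6%, where 21.4% of all genes were called), 2 without WT 1 (2.07% of all genes), 1 without F592A 1 (0.685%) and 0 without F592A 2 (0.0245%).

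A list of 97 guidance coreceptors and effectors, from netrin receptors and syndecans to cytoskeletal regulators, was read in the same fits. Over whole sections 0 of 91 tested genes were called, with 6 higher and 9 lower in F592A at an unadjusted p under 0.05 (16.5%, against 11.8% of all genes). The 4 of smallest p were Sdc3, a heparan sulfate proteoglycan (104 and 110 against 66.5 and 57.5 CPM, log2 -0.79 ± 0.11, edgeR adjusted p 0.138), Ntng1 (-1.44 ± 0.28), the latrophilin Adgrl3 (-0.80 ± 0.20) and the adhesion protein Chl1 (0.74 ± 0.19). In muscle-led spots 9 of 81 were called (11.1%, against 6.58% of all genes), Pick1 higher (log2 0.99 ± 0.21, edgeR adjusted p 0.047) and 8 lower, against 3.89% and 2.69% of all genes. Of these 8, the planar polarity coreceptor Ptk7 (-1.76 ± 0.28, edgeR adjusted p 0.041), the adaptor Grb10 (-1.70 ± 0.31, edgeR adjusted p 0.044) and Sdc3 (-1.16 ± 0.21, edgeR adjusted p 0.044) had the smallest p. The others lower were the Slit-Robo effector Srgap3, the semaphorin effectors Crmp1 and Farp1, the ephrin-cleaving protease Adam10, and Adgrl3. At an unadjusted p under 0.05, 26 genes of the list (32.1%) stood out in muscle-led spots, near the 33.2% of all genes. Median log2 fold changes of the list were -0.0050 in whole sections and -0.28 in muscle-led spots.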

How the data were processed

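Matrices of raw UMI counts for each gene and tissue spot were used as deposited, without normalization by the authors. They were written by Space Ranger 1.3.0, per the file headers, and the submitters' processing notes name mm10 and Seurat 3. The 63 guidance genes, the gene lists and the rules for named genes were chosen with earlier results of these data known.

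Spots under 500 UMIs (3 or 4 per section) were dropped. Regions were clustered in scanpy 1.11.5 from 2000 variable genes, guidance genes excluded (scaling to 10000 counts, 30 components, 20 neighbours, leidenalg 0.10.2 at resolution 0.6, seed 0). A region joined a tissue class when at least 3 of its 10 leading genes (highest fold after adding 20 CPM) were in that class's marker list and no other list had as many. A class was described in a section with at least 20 spots and tested with at least 50 in every section. A gene counted as high in a class at 2-fold or more over the rest in every section described.

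Summed counts per section, the replicate, went into edgeR 4.0.16 (R 4.3.3, quasi-likelihood test, TMM, filterByExpr). P-values were adjusted by Benjamini-Hochberg over every gene tested, at a threshold of 0.05. SE is computed from the fold change and its F statistic. The interaction used 8 sums, blocked by section. Settings varied were the tool (DESeq2 1.42.0), RLE scaling, the filter on low counts, each section left out, a replicate block, all tissue spots and Leiden resolution 1.0. Fits without nerve-led spots, without the Myh3-led region and with crossed pairing were added after seeing the data. On simulated data the whole-section fit (16347 genes) recovered 85% of genes changed by 2-fold, the muscle fit (12891 genes) 60% and the interaction (15914 genes) 16%. The simulation changed only genes above a minimum level, and its sections did not differ in tissue makeup. Its shares therefore do not measure the power of the real comparisons. Named genes were all those past the threshold, filled by smallest p to 14 in whole sections, 8 in each other fit and 3 in the interaction, up to 8 per tissue class by lowest fold, up to 4 of the coreceptor list by smallest p, and a fixed set. Genes named beyond these, in tendon-led and epidermis-led fits and by region, were chosen after their values were seen. Visium captures the 3′ end, so levels were not compared between genes. In whole sections the smallest library, 30154873 UMIs, leaves counting error small above a few CPM. Sums by tissue hold fewer UMIs, so their counting error is larger. In the epidermis-led fit, Epha1 in WT 2 was at 17.5 CPM on 14 UMIs, and Efnb3 at 4.99 CPM on 4. The level of the targeted gene is not reported here.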

Additional observations from a re-analysis of the deposited data

How the results depend on the processing

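With 2 sections per group, tests see only large and even differences, and most counts of called guidance genes depended on the setting. In whole sections (0 called) DESeq2 called 6, no filter on low counts 6 and the crossed pairing 4 (1.85%, 2.4% and 1.16% of all genes), and leaving out 1 section gave 0 to 5. Outside muscle-led regions (0 called) DESeq2 called 3 and the crossed pairing 1 (0.746% and 0.21% of all genes), and leaving out 1 section gave 0 to 8. In muscle-led spots (8 called) no filter gave 15 (23.8%, with 17.6% of all genes called), leaving out the Myh3-led region 0, and leaving out 1 section 0 to 12, while DESeq2, RLE scaling, all tissue spots and Leiden resolution 1.0 called the same 8 genes, with 6.55% to 15% of all genes called. For the interaction (0 called) RLE scaling gave 1, no filter 7 (1.21% and 9.36% of all genes), and leaving out 1 section 0 to 18. A lone section of a group was assumed to vary like the other group. The cause of these changes was not tested. Fits with a section or region left out also hold fewer sections or spots. The number of guidance genes highest in epidermis-led spots (37) was 35 to 39 under its alternatives, but the counts of the other classes changed at resolution 1.0, where 45 of 63 genes kept their highest class.

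The replicate numbers in the titles pair sections by number only, with 2 pairs. The replicate block called 0 guidance genes in whole sections, 0 outside muscle and 16 in muscle-led spots, where 31.9% of all genes were then called. Deviations of same-numbered sections correlated at -0.14 in whole sections, -0.29 outside muscle and 0.38 in muscle-led spots, and a correlation under -0.1 led to the crossed pairing above. Of 653 values under alternatives, 569 kept their direction and side of the threshold, 47 passed it, 23 no longer passed and 14 changed sign. The sign changes all came from leaving out 1 section in whole sections, for genes not called: the ranges of log2 fold change were -0.31 to 0.78 for Sema3c, -0.15 to 0.34 for Sema3d, -0.12 to 0.30 for Sema7a, -0.040 to 0.46 for Plxnb1, -0.082 to 0.77 for Robo2, -0.28 to 0.46 for Unc5b, -1.25 to 0.080 for Unc5c, -0.022 to 0.22 for Efna5, -0.34 to 0.0077 for Efnb1, -0.43 to 0.12 for Epha2 and -0.68 to 0.029 for Epha7.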

Other observations

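Guidance genes also varied among regions that the description by tissue class left out. Nrp1 was at 181 CPM in WT 2 and 159 and 139 CPM in F592A 1 and F592A 2 in an unclassed region whose leading genes include Mmp14 and Dkk2, against 39.2 to 103 CPM in the Acan-led tendon region of the 4 sections. That unclassed region held 409 and 399 spots in the F592A sections against 9 and 81 in the WT sections. In the blood-led region Nrp1 was at 198, 115 and 171 CPM in the 3 sections with at least 20 such spots. Sema4f, a transmembrane semaphorin, exceeded the rest of the section 2.02-fold to 5.34-fold in the Acan-led region of all 4 sections, the only guidance gene to pass 2-fold there.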
